A study of Mus musculus with 9 samples.

Results

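Interferon response genes are genes that cells switch on when they sense interferon, and 41 of them were listed for this comparison of sorted tracheal cells. A gene was kept where the array annotation gave at least 1 probe set to its symbol alone, and its probe set of highest mean signal across the 9 arrays stood for it. This gave 39 measured genes, among 18193 genes in all. Isg15, a ubiquitin-like protein, had only a probe set shared with other symbols and has no value here, and Ifi44 was not analysed here. The cells came from the trachea of hemizygous KRT5-GFP transgenic mice, in which the keratin 5 promoter drives a green fluorescent protein (GFP), and they were sorted on GFP and on binding of the isolectin GSI-A3B. The first gate held GFP+ lectin+ basal cells and is called the GFP+ gate. The second held GFP- lectin+ cells, which the labels also name basal cells, and is called the lectin-only gate. The third held GFP- lectin- columnar epithelium and is called the columnar gate. Each gate had 3 arrays, described as biological replicates. All 3 gates share the genotype, and the labels name no infection and no interferon treatment. Ages, sexes and any pooling of animals are not given in the sources used here.

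Interferons are secreted proteins, and those of types I and III are made by cells that detect viral nucleic acid. Type I and type III interferons bind their receptors and, through the kinases JAK1 and TYK2, activate a transcription factor complex, which includes STAT2 and IRF9, that binds the interferon-stimulated response element (ISRE) in target promoters. Interferon-gamma, or type II interferon, acts mainly through gamma-activated sites (GAS) in promoters. The induced genes encode sensors of viral RNA, transcription factors that strengthen the response, inhibitors that end it, and proteins that block viral replication or present antigen. Many are transcribed at a low level in resting epithelium.

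RefSeq promoter windows (GRCm38.p6, 250 bases before to 50 after a gene's start) were at hand for 31 of the 41 listed genes, in 37 windows. The ISRE core was searched on both strands as GAAA, any 2 bases and GAAA, which reads TTTC, any 2 bases and TTTC on the other strand. It was present in 17 of the 31 genes (54.8%), against 1079 of 27025 genes with a window (3.99%). The GAS letters, TTC, any 3 bases and GAA, which read alike on both strands, were present in 9 of the 37 windows (24.3%), against 8.30% of all 32851 windows. The 6 windows printed here belong to genes that the comparisons below turn on, 5 with the core and Irf7 without it. They are Ifit1 at chr19:34640639-34640938 (plus strand), Oas1a at chr5:120907476-120907775 (minus strand), Oas3 at chr5:120777610-120777909 (minus strand), Bst2 at chr8:71537423-71537722 (minus strand), Rsad2 at chr12:26456403-26456702 (minus strand) and Irf7 at chr7:141266375-141266674 (minus strand). Each is written 5′ to 3′ on the strand of the gene, and capitals mark matches to the ISRE core.
Ifit1: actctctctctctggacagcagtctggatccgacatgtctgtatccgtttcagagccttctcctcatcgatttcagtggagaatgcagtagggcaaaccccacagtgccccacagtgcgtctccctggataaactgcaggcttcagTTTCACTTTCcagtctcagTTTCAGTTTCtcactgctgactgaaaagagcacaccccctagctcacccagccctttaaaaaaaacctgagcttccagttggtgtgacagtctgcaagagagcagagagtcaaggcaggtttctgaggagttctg
Oas1a: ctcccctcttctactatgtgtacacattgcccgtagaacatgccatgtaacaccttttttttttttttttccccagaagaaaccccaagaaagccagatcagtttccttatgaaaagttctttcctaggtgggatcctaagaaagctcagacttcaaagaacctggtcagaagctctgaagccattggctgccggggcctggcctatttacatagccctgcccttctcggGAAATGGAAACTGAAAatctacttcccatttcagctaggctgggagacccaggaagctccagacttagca
Oas3: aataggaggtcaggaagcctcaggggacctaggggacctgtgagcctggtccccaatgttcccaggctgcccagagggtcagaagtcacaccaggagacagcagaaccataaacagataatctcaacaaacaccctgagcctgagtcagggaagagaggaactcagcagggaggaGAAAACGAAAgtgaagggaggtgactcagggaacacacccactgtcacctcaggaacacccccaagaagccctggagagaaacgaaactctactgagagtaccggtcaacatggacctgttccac
Bst2: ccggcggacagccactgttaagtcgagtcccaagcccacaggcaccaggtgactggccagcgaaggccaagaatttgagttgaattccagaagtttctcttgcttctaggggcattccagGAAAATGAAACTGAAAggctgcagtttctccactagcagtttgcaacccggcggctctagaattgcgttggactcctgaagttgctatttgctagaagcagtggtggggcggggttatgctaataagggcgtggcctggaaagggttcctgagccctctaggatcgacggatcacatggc
Rsad2: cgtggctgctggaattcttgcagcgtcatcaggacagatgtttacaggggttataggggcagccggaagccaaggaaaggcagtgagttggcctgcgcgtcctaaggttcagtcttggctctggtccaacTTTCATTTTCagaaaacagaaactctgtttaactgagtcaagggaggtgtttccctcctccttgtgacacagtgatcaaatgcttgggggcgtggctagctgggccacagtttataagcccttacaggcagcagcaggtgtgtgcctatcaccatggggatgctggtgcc
Irf7: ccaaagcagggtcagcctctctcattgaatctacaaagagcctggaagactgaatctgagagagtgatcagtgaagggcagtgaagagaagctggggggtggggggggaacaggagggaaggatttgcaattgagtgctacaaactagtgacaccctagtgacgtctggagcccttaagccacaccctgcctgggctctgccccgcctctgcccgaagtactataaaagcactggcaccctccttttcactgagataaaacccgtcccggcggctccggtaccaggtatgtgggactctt

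Counted from the gene's start, the matches begin at -104 and -85 in Ifit1, at -75 in Oas3 and at -120 in Rsad2. The pairs of matches in Oas1a, at -20 and -14, and in Bst2, at -130 and -124, overlap each other, so each reads as 1 capital run. A GAS match begins at -136 in Bst2, where it overlaps the first ISRE match, and another at -98 in Oas1a, with none in the other 4 printed windows. Irf7 has no ISRE match in this window. Of the called genes whose windows are not printed, Oasl1 has none in its window and Isg20 none in any of its 3. This says only that these letters are not there. No window was at hand for the called genes Dhx58, Oas2 and Rtp4. Among measured genes with a window, the core was in that of 5 of 8 called in a comparison (62.5%) and of 11 of 21 not called (52.4%). A match is a description of the sequence and not evidence of binding in these cells.

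The levels are log2 signals on which a difference of 1 is a 2-fold change, and a level of one gene says nothing about the level of another because probe sets differ in brightness. A gene was called where limma's adjusted p was under 0.05 and the log2 difference was at least 1 in size. All 39 genes lay above a background level of 3.33, set from 80 probe sets of olfactory and vomeronasal receptors, on all 9 arrays. Krt5, the basal cell keratin, averaged 13.43 ± 0.01 (SD) in GFP+, 12.88 ± 0.15 in lectin-only and 7.96 ± 1.12 in columnar cells. Basal markers were higher in 10 of 12 genes in the GFP+ gate and in 10 of 12 in the lectin-only gate, each against columnar cells, and 10 of 11 ciliated cell markers were lower in the GFP+ gate. The lectin-only gate, labelled as basal cells, also held leukocyte markers at levels given after the interferon response genes. Array medians were 4.91 to 5.16 on 8 arrays and 5.44 on lectin-only replicate 3, where 37 of the 39 interferon response genes and 80.9% of all genes lay above their gate's mean.

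In GFP+ basal cells against columnar cells, 10 of the 39 interferon response genes were lower, among them the 2'-5'-oligoadenylate synthetase genes Oas1a, Oas2 and Oas3, the transcription factor gene Irf7 and the virus-tethering gene Bst2. None was higher. Over all genes 11.2% were called in this comparison, 5.33% lower and 5.88% higher. Without adjustment, limma gave a p under 0.05 to 21 of the 39 with a negative difference and to 1 with a positive one, against 12.1% and 13.1% of all genes. Of the 39 differences 7 were positive, against 46.2% over all genes, and 32 were negative, against 53.8%. The median difference was -0.66, beside -0.04 for all genes. On 25 of the 39 genes every GFP+ array lay below every columnar array, against 17.8% of all genes, and on 0 did every GFP+ array lie above, against 15.8%. In RNA from sorted populations, fewer cells of a type and less RNA per cell cannot be told apart.

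In lectin-only cells against columnar cells, 4 genes were lower (Dhx58, Irf7, Oas2 and Bst2) and 1 was higher (Oasl1). Over all genes 8.85% were called, 2.38% lower and 6.47% higher. Of the 39 differences 8 were positive, against 59.0% over all genes, and 31 were negative, against 41.0%. The median was -0.39, beside 0.07 for all genes. Every lectin-only array lay below every columnar array for 14 of the 39, against 8.61% of all genes, and above for 1, against 16.0%. With each array centred on its own median, 1 gene was higher and 10 were lower, and the all-gene count under that setting is not given here. Without lectin-only replicate 3, which had the highest median of the 9 arrays, 8 genes were called lower, and without columnar replicate 3 only 1 was. Over all genes, 1610 were called with all 9 arrays and 1343 to 1634 with any 1 array left out.

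In GFP+ cells against lectin-only cells, Oas2 and Isg20 were lower and 0 genes were higher. Over all genes 3.74% were called, 2.84% lower and 0.896% higher, so 2 of 39 is near the background. Without adjustment, limma gave a p under 0.05 to 7 genes with a negative difference and to 0 with a positive one, against 11.2% and 4.11% of all genes, 15.3% together. Of the 39 differences 6 were positive, against 35.9% over all genes, and 33 were negative, against 64.1%, with a median of -0.29 beside -0.10. On 8 genes every GFP+ array lay below every lectin-only array, against 13.3% of all genes, and on 0 genes above, against 5.24%. Leaving out lectin-only replicate 1 left 0 calls. The comparisons with the columnar gate share its 3 arrays, so like results in both are not separate observations.

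**Figure D1:**
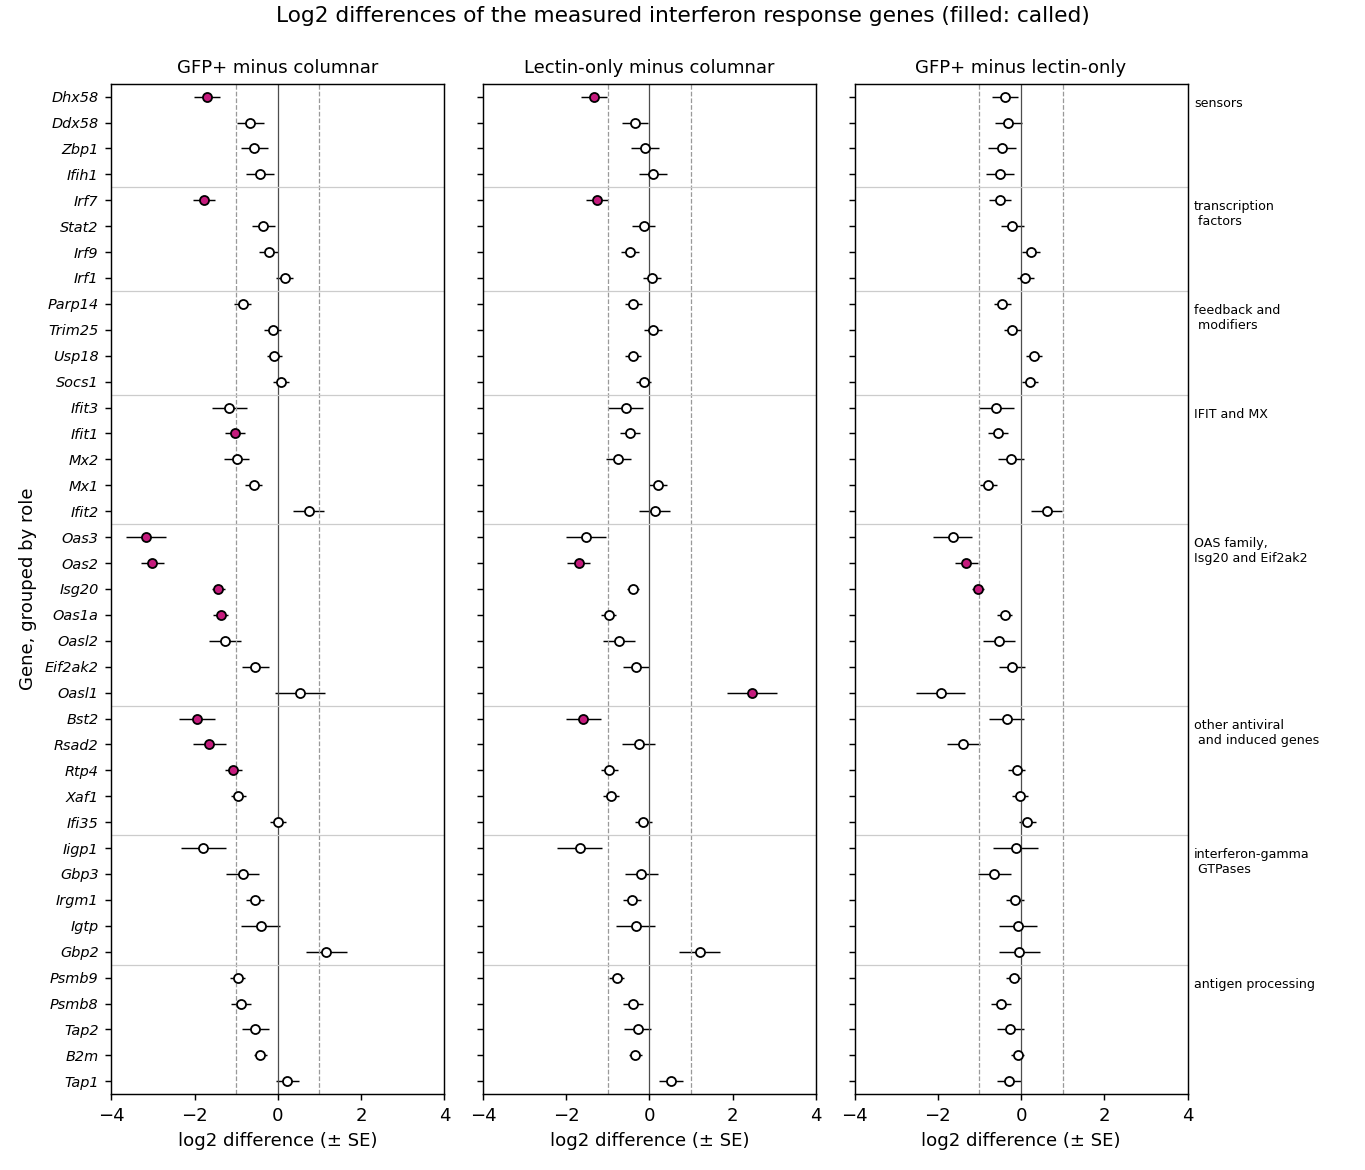
Log2 difference (± SE, horizontal axes) of each of the 39 interferon response genes, grouped by role down the page, for GFP+ minus columnar, lectin-only minus columnar and GFP+ minus lectin-only. Filled points are called genes and dashed lines stand at a difference of 1 in either direction: 10 genes lie filled on the left of the first panel, 4 on the left and Oasl1 on the right of the second, and 2 on the left of the third.

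Ordered by gate, the columnar gate had the highest mean for 29 of the 39 genes (74.4%), as it did for 34.2% of all genes. The GFP+ gate had the lowest mean for 30 (76.9%), against 44.0% of all genes. The mean over the 39 genes was 8.39, 8.29 and 8.63 on the GFP+ arrays, 8.68, 8.53 and 9.24 on the lectin-only arrays and 9.23, 9.01 and 9.40 on the columnar arrays. The GFP+ arrays all lay below the columnar arrays, while lectin-only replicate 3 lay among the columnar ones.

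**Figure D2:**
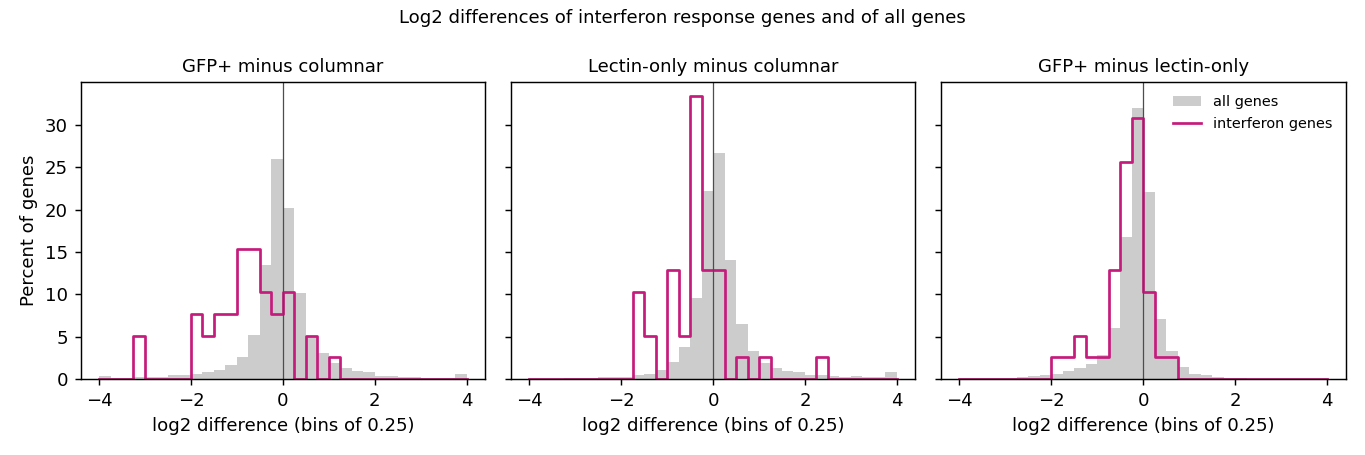
Percent of genes (vertical axis) in bins of the log2 difference (horizontal axis) for the 39 interferon response genes (line) and all 18193 genes (grey), with the outermost bins holding everything beyond. The line lies left of the grey in GFP+ minus columnar, where the medians were -0.66 and -0.04, and less so in the other panels.

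Among the sensors, Dhx58, which encodes LGP2, an RNA helicase that modulates RIG-I and MDA5 signalling, was the only 1 of 4 called. Its levels were 6.32, 6.08 and 6.14 on the GFP+ arrays, 6.20, 6.76 and 6.72 on the lectin-only arrays and 8.52, 7.21 and 7.91 on the columnar arrays. All 6 lectin-binding arrays lay below all 3 columnar arrays, and GFP+ and lectin-only arrays overlapped. The difference was -1.70 ± 0.31, adjusted p = 0.00500 in GFP+ against columnar (3.26-fold lower) and -1.32 ± 0.31, adjusted p = 0.0235 in lectin-only against columnar. The second call was lost without lectin-only replicate 1 or columnar replicate 1 or 3. The cytoplasmic RNA sensor genes Ddx58 (RIG-I) and Ifih1 (MDA5) and the Z-form nucleic acid sensor gene Zbp1 were not called in any comparison. Ddx58 averaged 8.64 in GFP+, 8.95 in lectin-only and 9.30 in columnar cells, Ifih1 9.89 in GFP+, 10.39 in lectin-only and 10.31 in columnar cells and Zbp1 8.33 in GFP+, 8.79 in lectin-only and 8.89 in columnar cells.

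Of the 4 transcription factor genes, Irf7, which amplifies type I interferon production, was the only 1 called. Irf7 measured 7.69, 7.50 and 7.58 on the GFP+ arrays, 8.06, 7.83 and 8.41 on the lectin-only arrays and 9.32, 8.87 and 9.88 on the columnar arrays. The gates did not overlap in any pair. Irf7 was lower in GFP+ cells (-1.76 ± 0.26, adjusted p = 0.00164, 3.40-fold) and in lectin-only cells (-1.26 ± 0.26, adjusted p = 0.0131), each against columnar cells. GFP+ minus lectin-only was -0.50 ± 0.26, adjusted p = 0.434. Without columnar replicate 3 the call in lectin-only cells was lost. Stat2, the STAT of the type I and III complex, measured 7.12, 6.97 and 6.68 on the GFP+ arrays, 7.13, 6.95 and 7.32 on the lectin-only arrays and 7.86, 6.69 and 7.27 on the columnar arrays, and the gates overlapped (-0.35 ± 0.28, adjusted p = 0.526 for GFP+ minus columnar). Irf9, its DNA-binding partner, averaged 9.67 in GFP+, 9.43 in lectin-only and 9.90 in columnar cells, and Irf1, a target of interferon-gamma, averaged 10.70 in GFP+, 10.60 in lectin-only and 10.54 in columnar cells; neither was called.

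None of the 4 feedback and modifier genes was called in any of the 3 comparisons. Trim25, a ubiquitin ligase of the RIG-I pathway, the group's gene of highest mean signal, measured 11.15, 11.38 and 11.36 on the GFP+ arrays, 11.38, 11.41 and 11.73 on the lectin-only arrays and 11.23, 11.22 and 11.82 on the columnar arrays. The gates overlapped, and GFP+ minus columnar was -0.13 ± 0.21, adjusted p = 0.798. Parp14, an ADP-ribosyltransferase, had -0.84 ± 0.21 for GFP+ minus columnar, with adjusted p = 0.0235, but stayed under the size threshold. Usp18, which removes ISG15 from proteins and restrains the type I receptor, averaged 10.24 in GFP+, 9.93 in lectin-only and 10.33 in columnar cells. Socs1, an inhibitor of JAK kinases, lay close to background at 3.87 in GFP+, 3.66 in lectin-only and 3.80 in columnar cells. Without adjustment, limma gave a p under 0.05 to Parp14 alone of these 4, in GFP+ minus columnar.

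In the IFIT and MX group, 1 of 5 genes was lower in GFP+ against columnar cells and 0 of 5 were called elsewhere. In lectin-only minus columnar limma gave an unadjusted p under 0.05 to 1 of the 5, beside 21.8% of all genes. In GFP+ minus lectin-only it gave such a p to 2 of the 5, beside 15.3% of all genes. Ifit1, which encodes a protein that binds viral RNA with foreign 5′ ends, and whose promoter above holds 2 core matches, measured 10.24, 10.36 and 10.76 on the GFP+ arrays, 10.94, 10.61 and 11.48 on the lectin-only arrays and 11.45, 11.37 and 11.62 on the columnar arrays. GFP+ and columnar arrays did not overlap (-1.02 ± 0.24, adjusted p = 0.0205, 2.03-fold), while lectin-only arrays overlapped with both. The call on Ifit1 is close to the size threshold, and it was lost without GFP+ replicate 1 or 2 or columnar replicate 1 or 3. Ifit3 (-1.17 ± 0.42, adjusted p = 0.109) and Mx2 (-0.99 ± 0.30, adjusted p = 0.0612), a dynamin-like antiviral GTPase, had differences of like size in GFP+ minus columnar and were not called. Mx1, its paralog, averaged 9.48 in GFP+, 10.27 in lectin-only and 10.07 in columnar cells, and GFP+ minus lectin-only was -0.79 ± 0.21, adjusted p = 0.0706. Ifit2 had positive differences in all 3 comparisons that were not called (0.74 ± 0.37 for GFP+ minus columnar), and its probe set held 1 identical value on 4 of the 9 arrays.

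The group of OAS genes, Isg20 and Eif2ak2 held the genes with the greatest differences among the 39: in GFP+ against columnar cells 4 of 7 were lower. On binding double-stranded RNA, OAS proteins make 2'-5'-linked oligoadenylates that activate RNase L. Mouse Oas1 genes are close copies of each other, so the signal of Oas1a may include them. Oas3 measured 5.28, 3.56 and 5.04 on the GFP+ arrays, 6.05, 5.81 and 6.96 on the lectin-only arrays and 8.29, 7.43 and 7.66 on the columnar arrays. The 3 gates did not overlap in any pair. Oas3 was 8.99-fold lower in GFP+ than in columnar cells (-3.17 ± 0.47, adjusted p = 0.00161). The 2 intermediate differences, lectin-only minus columnar (-1.52 ± 0.47, adjusted p = 0.0768) and GFP+ minus lectin-only (-1.65 ± 0.47, adjusted p = 0.0974), were not called.

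Oas2 measured 6.28, 7.21 and 6.59 on the GFP+ arrays, 7.91, 7.65 and 8.47 on the lectin-only arrays and 9.70, 9.78 and 9.65 on the columnar arrays. It was the only gene of the 39 called in all 3 comparisons, and its gates did not overlap in any pair. The differences were -3.02 ± 0.28, adjusted p = 0.000111 for GFP+ minus columnar (8.10-fold lower), -1.70 ± 0.28, adjusted p = 0.00373 for lectin-only minus columnar and -1.32 ± 0.28, adjusted p = 0.0301 for GFP+ minus lectin-only. The last was no longer called without GFP+ replicate 1 or 3 or lectin-only replicate 1 or 3. Oas1a measured 9.80, 9.73 and 9.74 on the GFP+ arrays, 9.96, 10.01 and 10.49 on the lectin-only arrays and 11.13, 11.06 and 11.20 on the columnar arrays. Here too no gates overlapped; GFP+ minus columnar was -1.37 ± 0.18, adjusted p = 0.000784, and lectin-only minus columnar was -0.97 ± 0.18, adjusted p = 0.00719, just under the size threshold.

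Isg20, which encodes an exonuclease that degrades viral RNA, measured 11.25, 11.28 and 11.41 on the GFP+ arrays, 12.44, 12.22 and 12.39 on the lectin-only arrays and 12.70, 12.71 and 12.81 on the columnar arrays. The spread within each gate was small, and the lectin-only gate lay nearer to the columnar gate than to the GFP+ gate. GFP+ cells were lower than columnar cells (-1.43 ± 0.15, adjusted p = 0.000232) and than lectin-only cells (-1.04 ± 0.15, adjusted p = 0.00631), and lectin-only minus columnar was -0.39 ± 0.15, adjusted p = 0.158. The difference from lectin-only cells fell under the size threshold without lectin-only replicate 1 (-0.99) and with arrays centred on their medians (-0.91).

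Oasl1, an OAS-like protein without synthetase activity that in mouse limits translation of Irf7 mRNA, went the other way. It measured 5.94, 7.80 and 8.43 on the GFP+ arrays, 8.98, 9.22 and 9.75 on the lectin-only arrays and 7.09, 6.06 and 7.42 on the columnar arrays. All lectin-only arrays lay above all other arrays, and the GFP+ arrays spread over more than 2 log2 units. Oasl1 was 5.51-fold higher in lectin-only than in columnar cells (2.46 ± 0.59, adjusted p = 0.0261), the only interferon response gene called higher in any comparison. It was not called without any 1 of the 3 lectin-only arrays or without columnar replicate 1 or 2, with adjusted p between 0.0578 and 0.0936. GFP+ minus columnar was 0.53 ± 0.59, adjusted p = 0.666 and GFP+ minus lectin-only -1.93 ± 0.59, adjusted p = 0.121. Its paralog Oasl2 averaged 9.76 in GFP+, 10.28 in lectin-only and 11.02 in columnar cells (-1.26 ± 0.39, adjusted p = 0.0616 for GFP+ minus columnar), and Eif2ak2, the double-stranded RNA-dependent kinase PKR, averaged 8.48 in GFP+, 8.69 in lectin-only and 9.02 in columnar cells; neither was called.

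**Figure D3:**
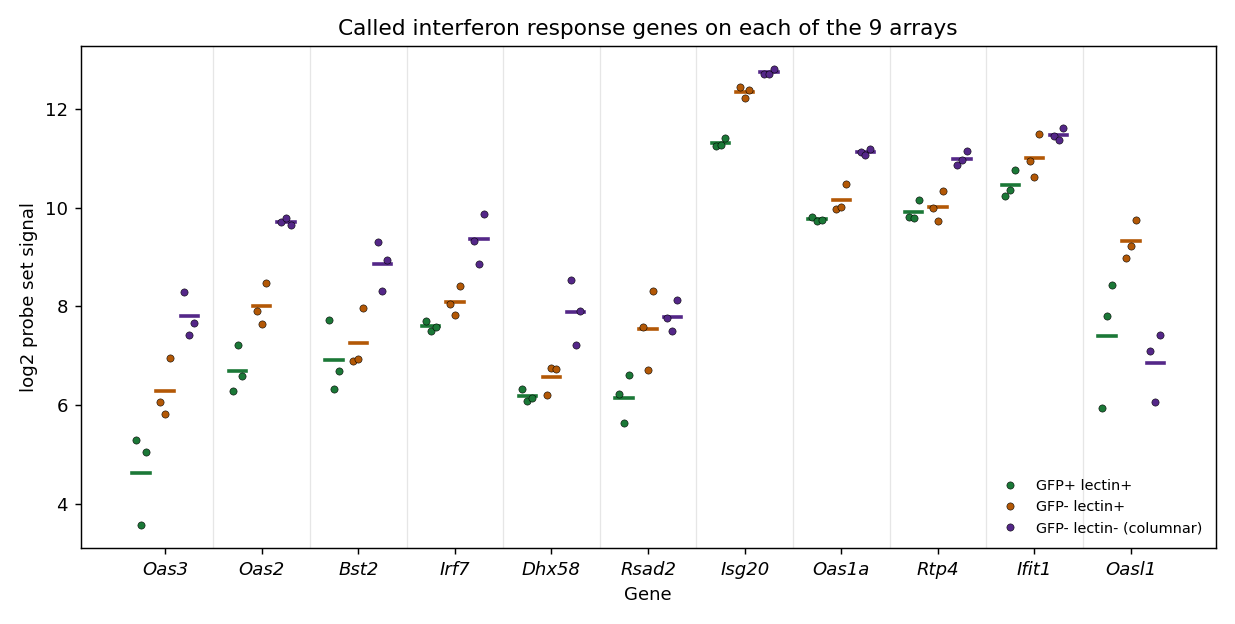
Log2 signal (vertical axis) on each of the 9 arrays for the 11 interferon response genes called in any comparison (horizontal axis), with a line at the mean of each gate. For Oas3 and Oas2 the points step up by gate without overlap, with means of 4.63 and 6.69 for GFP+, 6.27 and 8.01 for lectin-only and 7.80 and 9.71 for columnar cells, while Oasl1 stands highest in the lectin-only gate.

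Of the 5 other antiviral and induced genes, 3 were lower in GFP+ against columnar cells and 1, Bst2, was lower in lectin-only against columnar cells. Bst2, or tetherin, holds budding virions on the cell surface, and measured 7.73, 6.32 and 6.68 on the GFP+ arrays, 6.90, 6.93 and 7.96 on the lectin-only arrays and 9.31, 8.30 and 8.93 on the columnar arrays. All lectin-binding arrays lay below all columnar arrays. The differences were -1.94 ± 0.43, adjusted p = 0.0139 for GFP+ and -1.59 ± 0.43, adjusted p = 0.0439 for lectin-only, both minus columnar. The first was lost without GFP+ replicate 2 or 3 or columnar replicate 1, and the second without GFP+ replicate 3, lectin-only replicate 1 or 2, or columnar replicate 1 or 3.

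Rsad2, or viperin, an enzyme that makes a chain-terminating nucleotide, measured 6.21, 5.63 and 6.60 on the GFP+ arrays, 7.59, 6.70 and 8.32 on the lectin-only arrays and 7.76, 7.50 and 8.12 on the columnar arrays. GFP+ arrays lay below all other arrays, while lectin-only and columnar arrays overlapped. GFP+ minus columnar was -1.65 ± 0.40, adjusted p = 0.0220, a call that was lost without GFP+ replicate 1 or 2 or columnar replicate 1 or 3, and GFP+ minus lectin-only was -1.39 ± 0.40, adjusted p = 0.0987. Rtp4, a receptor transporter protein that is also interferon-induced, measured 9.82, 9.79 and 10.15 on the GFP+ arrays, 9.999, 9.74 and 10.33 on the lectin-only arrays and 10.86, 10.96 and 11.16 on the columnar arrays. Both lectin-binding gates lay below the columnar gate and overlapped with each other: GFP+ minus columnar was -1.07 ± 0.20, adjusted p = 0.00626, called, and lectin-only minus columnar was -0.97 ± 0.20, adjusted p = 0.0134, under the size threshold. The Rtp4 call was lost without columnar replicate 3. Xaf1, which binds XIAP, was close to this pattern without a call (-0.95 ± 0.19, adjusted p = 0.00725 for GFP+ and -0.93 ± 0.19, adjusted p = 0.0106 for lectin-only, both minus columnar), and Ifi35 averaged 12.51 in GFP+, 12.36 in lectin-only and 12.51 in columnar cells.

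None of the 5 interferon-gamma GTPase genes was called by limma, and without adjustment 2 had a p under 0.05 with a negative and 1 with a positive difference in GFP+ minus columnar, where 25.1% of all genes had such a p. These proteins act on the membranes around intracellular pathogens. Igtp measured 8.65, 8.30 and 9.37 on the GFP+ arrays, 9.06, 7.84 and 9.66 on the lectin-only arrays and 8.86, 9.0 and 9.71 on the columnar arrays, with overlap between all gates. Iigp1 had a difference of -1.80 ± 0.54, adjusted p = 0.0563 for GFP+ minus columnar and -1.67 ± 0.54, adjusted p = 0.0895 for lectin-only minus columnar, and neither set of arrays overlapped with the columnar arrays. Gbp2 had positive differences against columnar cells in GFP+ (1.17 ± 0.50, adjusted p = 0.179) and lectin-only cells (1.21 ± 0.50, adjusted p = 0.189). Gbp3 averaged 7.32 in GFP+, 7.97 in lectin-only and 8.16 in columnar cells and Irgm1 8.55 in GFP+, 8.69 in lectin-only and 9.11 in columnar cells.

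None of the 5 antigen processing genes was called either, and without adjustment limma gave 3 of them a p under 0.05 in GFP+ minus columnar, all lower, against 25.1% of all genes in either direction. B2m, the light chain of MHC class I, measured 13.04, 12.91 and 12.94 on the GFP+ arrays, 13.03, 12.94 and 13.17 on the lectin-only arrays and 13.50, 13.27 and 13.39 on the columnar arrays, and the columnar arrays lay above the rest (-0.42 ± 0.16, adjusted p = 0.119 for GFP+ minus columnar). The immunoproteasome genes Psmb9 (-0.96 ± 0.18, adjusted p = 0.00655) and Psmb8 (-0.88 ± 0.24, adjusted p = 0.0367) passed the adjusted p in GFP+ minus columnar and stayed under the size threshold. The peptide transporter gene Tap1 averaged 9.12 in GFP+, 9.41 in lectin-only and 8.89 in columnar cells, and its partner Tap2 averaged 7.13 in GFP+, 7.38 in lectin-only and 7.67 in columnar cells. With the size threshold dropped, 14 of the 39 genes were lower in GFP+ than in columnar cells, the added ones being Parp14, Xaf1, Psmb8 and Psmb9. The share of all genes called at adjusted p alone is not given here, and the all-gene shares above are for other thresholds.

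Of 12 listed interferon genes 8 were measured, most of them at or near background. Ifng averaged 3.09 in GFP+, 4.27 in lectin-only and 3.12 in columnar cells. It was called higher in lectin-only than in columnar cells (adjusted p = 0.00565), but 2 of the 3 columnar arrays lay under the background level, and with those set to it the difference was 0.90, under the size threshold. With all GFP+ arrays under background, it was at least 1.92-fold lower in GFP+ than in lectin-only cells (adjusted p = 0.0126). The other 7, which include Ifnb1 and 6 interferon-alpha genes, were not called. Near-identical interferon-alpha genes can share probes, so their values are uncertain.

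Of 14 measured receptor and JAK-STAT genes 0 were called in any comparison by limma. An unadjusted p under 0.05 was given to 3 higher in GFP+ and 3 higher in lectin-only cells, each against columnar cells. Of all genes, 13.1% were higher with such a p in GFP+ and 14.9% in lectin-only cells. Ifnar1, a chain of the type I receptor, averaged 7.89 in GFP+, 8.01 in lectin-only and 7.44 in columnar cells, and Ifngr1, of the interferon-gamma receptor, averaged 8.85 in GFP+, 8.98 in lectin-only and 8.32 in columnar cells. Those named for their mean signal are Socs3, a cytokine signalling inhibitor, and Ptpn11, a phosphatase, at 12.25 in GFP+, 11.83 in lectin-only and 11.38 in columnar cells and 11.61 in GFP+, 11.60 in lectin-only and 11.43 in columnar cells.

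Of 16 measured genes that lead to interferon production, Cgas, the sensor of cytoplasmic DNA, was higher in GFP+ (1.15 ± 0.32, adjusted p = 0.0405) and in lectin-only cells (1.22 ± 0.32, adjusted p = 0.0385), each against columnar cells. Irf8 was lower in GFP+ than in columnar cells (-1.33 ± 0.33, adjusted p = 0.0246) and than in lectin-only cells (-2.23 ± 0.33, adjusted p = 0.00659). Tlr7, a sensor of single-stranded RNA in immune cells, was at least 1.89-fold higher in lectin-only cells than in columnar cells (adjusted p = 0.00482) and at least 1.89-fold lower in GFP+ than in lectin-only cells (adjusted p = 0.00680). The remaining 13 were not called. In each comparison 12.5% of the 16 were called. Of all genes, 11.2% were called in GFP+ against columnar, 8.85% in lectin-only against columnar and 3.74% in GFP+ against lectin-only.

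Among 39 measured interferon-induced genes outside the list, 6 were lower and 1 was higher in GFP+ against columnar cells, with a median difference of -0.27. Of all genes, 5.33% were lower and 5.88% higher there, with a median of -0.04. In lectin-only against columnar cells 2 were lower and 3 were higher, beside 2.38% and 6.47% of all genes. In GFP+ against lectin-only cells 1 was lower (2.56%), which is near the 2.84% of all genes. Epsti1 averaged 5.09 in GFP+, 6.58 in lectin-only and 7.70 in columnar cells and was lower in GFP+ than in columnar cells (-2.61 ± 0.31, adjusted p = 0.000455) and than in lectin-only cells (-1.49 ± 0.31, adjusted p = 0.0301). The chemokine gene Ccl5 (2.39 ± 0.64, adjusted p = 0.0424) and Ifi204, of the HIN-200 family (adjusted p = 0.0280), were higher in lectin-only than in columnar cells. For Ifi204, 2 of the 3 columnar arrays lay under the background level, and with those set to it the difference was 2.04. The gene called higher in GFP+ cells, named after its value was seen, was the chemokine gene Cxcl10, at 7.32 in GFP+, 7.81 in lectin-only and 5.96 in columnar cells (1.36 ± 0.19, adjusted p = 0.00126 for GFP+ and 1.85 ± 0.19, adjusted p = 0.000360 for lectin-only, both minus columnar).

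Of 11 further measured genes of MHC class I presentation 0 were called in any comparison by limma. In GFP+ minus columnar 2 had an unadjusted p under 0.05 with a negative difference, as did 12.1% of all genes. The 2 with the highest means, Tapbp and Calr, averaged 12.97 in GFP+, 13.10 in lectin-only and 13.10 in columnar cells and 12.57 in GFP+, 12.65 in lectin-only and 12.79 in columnar cells. All 7 constitutive proteasome genes had a negative difference in GFP+ minus columnar, with a median of -0.35, and 0 were called or had an unadjusted p under 0.05. Psmb3 averaged 12.71 in GFP+, 12.68 in lectin-only and 12.85 in columnar cells and Psmb4 12.06 in GFP+, 12.22 in lectin-only and 12.28 in columnar cells. In MHC class II, all 7 measured genes were higher in lectin-only than in columnar cells, 4 were higher in GFP+ than in columnar cells, and all 7 were lower in GFP+ than in lectin-only cells. H2-Ab1 averaged 8.50 in GFP+, 11.89 in lectin-only and 6.47 in columnar cells, H2-Aa 8.58 in GFP+, 11.66 in lectin-only and 6.28 in columnar cells and H2-Eb1 7.84 in GFP+, 11.42 in lectin-only and 6.32 in columnar cells.

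Markers of other cell types moved with the gates. Ptprc, which encodes the leukocyte surface phosphatase CD45, measured 5.11, 4.73 and 6.38 on the GFP+ arrays, 8.85, 8.29 and 9.72 on the lectin-only arrays and 4.36, 2.86 and 2.53 on the columnar arrays, and 2 of the 3 columnar arrays lay under the background level. With those set to that level, lectin-only minus columnar was 5.28. Of 16 leukocyte markers 14 were higher in lectin-only and 3 higher and 1 lower in GFP+ cells, each against columnar cells. Their mean ranged over 5.97 to 6.87 on GFP+ arrays, 8.68 to 9.29 on lectin-only arrays and 5.16 to 5.78 on columnar arrays, and their summed linear signal over 3770 to 4878, 13168 to 19643 and 4689 to 6375 in the same order. Of 14 macrophage and dendritic cell markers 11 were higher in lectin-only than in columnar cells. Of 11 ciliated cell markers, whose mean was 5.23 to 6.06 on GFP+ arrays, 6.43 to 7.40 on lectin-only arrays and 8.65 to 9.12 on columnar arrays, 10 were lower in GFP+ and 8 in lectin-only cells, each against columnar cells. Of 10 club and secretory cell markers 2 were lower in each of those comparisons, and all 10 had a negative difference in GFP+ minus columnar. Their mean followed the order of the ciliated markers, at 12.21 to 12.68 on GFP+ arrays, 12.90 to 13.05 on lectin-only arrays and 13.37 to 13.53 on columnar arrays. In lectin-only against columnar cells 7 of 13 lymphocyte, 4 of 12 endothelial and 2 of 9 fibroblast markers were also higher. There 0 of 5 plasmacytoid dendritic cell markers were called. Of these 5, limma gave an unadjusted p under 0.05 to 3, beside 21.8% of all genes. In GFP+ against columnar cells 1 lymphocyte and 1 fibroblast marker were higher, and 3 fibroblast markers, 1 endothelial, 1 macrophage and dendritic cell and 1 plasmacytoid dendritic cell marker were lower. The part of these cell types in the differences of the interferon response genes was not tested.

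**Figure D4:**
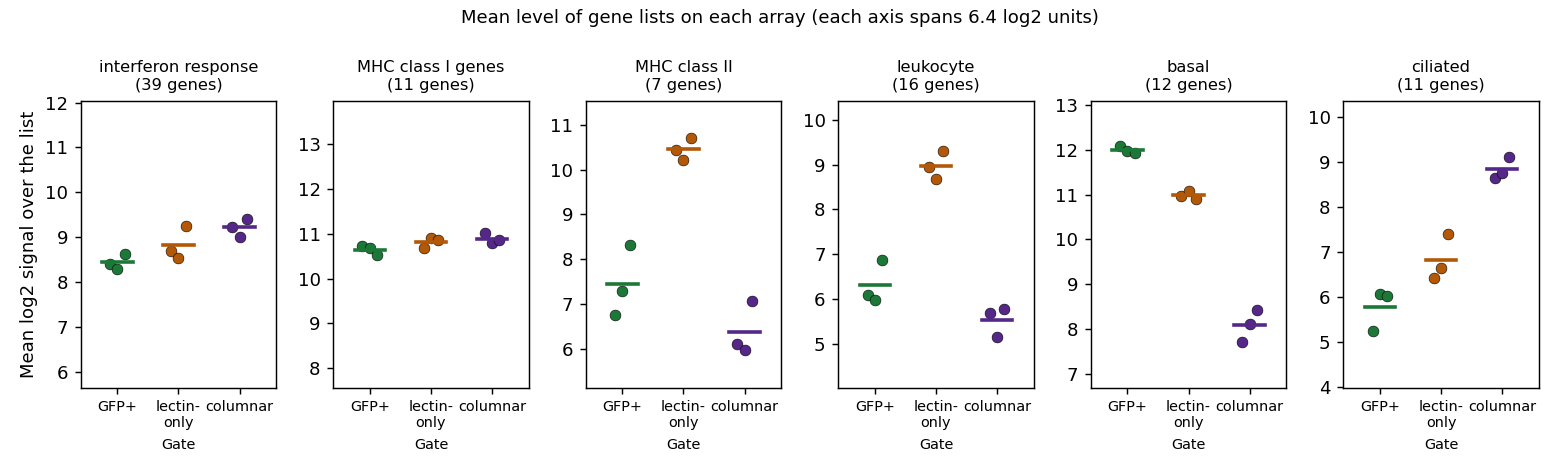
Mean log2 signal (vertical axes, each spanning 6.4 log2 units) of 6 gene lists on each array, by gate, with a line at the mean of the 3 arrays. The 39 interferon response genes stand lower in the GFP+ gate, at 8.29 to 8.63, than in the columnar gate, at 9.01 to 9.40. Gate means of the ciliated and MHC class I lists also rise from GFP+ through lectin-only to columnar, though class I arrays of neighbouring gates overlap. The leukocyte and MHC class II lists are highest in the lectin-only gate.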

How the data were processed

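RNA from 3 sorted gates of mouse tracheal cells, 3 arrays each, was measured on Affymetrix arrays. The deposited values are log2 probe set signals that the authors made with RMA, per the submitters' processing notes; software and build are not given in the sources used here. Of 45101 probe sets, 34945 had 1 gene symbol, 932 had several and 9160 had none. Symbols of 34741 were matched to RefSeq. Probe sets with several symbols, with none, or for controls (64) were left out. The brightest probe set by mean over 9 arrays stood for each of 18193 genes, of which 9010 had several. Groups were fitted together by limma 3.58.1 under R 4.3.3 (functions lmFit and eBayes without trend or robust option, 6 residual degrees of freedom, prior 3.46), with Benjamini-Hochberg adjustment over all genes per comparison. Genes were called at adjusted p under 0.05 and a log2 difference of at least 1. Errors are limma standard errors (SE) or standard deviations (SD, n = 3). The number of arrays limits precision, with a median SE of 0.24. The fit was tested on simulated data. Genes under the background level (95th percentile of receptor probe set means, 3.33) on all arrays of a gate have only a bound. Setting single arrays under it to that level, for Ifng, Ifi204 and Ptprc, was chosen after seeing the data.

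The members and gene lists were chosen with earlier results of these data known. Values on all arrays are given for up to 3 called genes of each role group by size of difference, or its gene with the highest mean where none was called; Oas1a and Isg20 were added so that all 11 called genes are shown. Of each pathway list up to 3 called genes, or the 2 of highest mean, are named. Irf7, Stat2, Isg15, B2m, Ifnar1, Ifngr1 and Ptprc are always named, and a further gene of that rule is not reported here. Alternatives were other scalings, probe set choices, fits and thresholds, and leaving out each array in turn.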

Additional observations from a re-analysis of the deposited data

How the results depend on the processing

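No called difference changed sign under an alternative. The calls that held under every alternative run were 5 of 10 in GFP+ against columnar (Irf7, Oas1a, Oas2, Oas3 and Isg20), 1 of 5 in lectin-only against columnar (Oas2) and 0 of 2 in GFP+ against lectin-only. With arrays centred on their medians, 16 genes were lower in GFP+ against columnar, 11 were called in lectin-only against columnar (10 lower) and 1 was lower in GFP+ against lectin-only. The all-gene medians were then -0.15, -0.16 and 0.03, in the same order. Centring shifts all genes of an array alike, so it cannot move members against all genes. Quantile normalization, which can, gave members' medians minus all-gene medians of -0.69, -0.43 and -0.20, beside -0.62, -0.46 and -0.19 as deposited. It gave 11 calls (10 lower) in lectin-only against columnar and 1 in GFP+ against lectin-only. Adjusted p alone gave 9 (8 lower) in lectin-only against columnar. Fitting only the 6 arrays compared gave 1 in GFP+ against lectin-only. All-gene call counts under these settings are not given here, so the member counts have no background share beside them.

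Leaving out 1 array gave 7 to 11 calls in GFP+ against columnar, all lower. Over all genes it gave 1687 to 2070 calls in that comparison, beside 2038 with every array kept. For the interferon response genes it gave 2 to 8 in lectin-only against columnar, 1 to 8 of them lower and 0 to 1 higher. There were 2 in all without lectin-only replicate 1 or columnar replicate 3. In GFP+ against lectin-only it gave 0 to 3, with 0 without lectin-only replicate 1. All-gene calls there were 680, and 373 without GFP+ replicate 1. Calls of Dhx58 (-0.86, adjusted p = 0.0155) and Rtp4 (-0.96, adjusted p = 0.0404) in GFP+ against columnar were lost on size when probe sets of a gene were averaged. That of Dhx58 in lectin-only against columnar was lost under that average, with 6 arrays, and without lectin-only replicate 1 or columnar replicate 1 or 3, and that of Irf7 without columnar replicate 3. The cause was not tested.

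Same-numbered arrays of different gates had correlations of deviations between -0.06 and 0.36 over 14465 genes, not all above 0.1. Different-numbered arrays had -0.50 to 0.20, and the highest values were all between same-numbered arrays. The labels do not say that a number marks a shared animal or day. The main fit therefore did not pair the numbers, and a shared source of same-numbered arrays remains possible. With the replicate block, 14 genes were called in GFP+ against columnar (1 higher, Gbp2), 8 in lectin-only against columnar (2 higher, Gbp2 and Oasl1) and 4 in GFP+ against lectin-only, all lower. All-gene counts under the block are not given here.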

Other observations

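Other probe sets of 16 of the 39 genes gave values that the choice of the brightest one leaves out. In a fit over all probe sets, a second probe set of Trim25 was higher in lectin-only than in columnar cells (1.37 ± 0.28, adjusted p = 0.0167), where the chosen one gave 0.08. A second probe set of Iigp1 was lower in GFP+ than in columnar cells (-1.58 ± 0.43, adjusted p = 0.0467), where the chosen one missed the threshold. A second probe set of Xaf1, with a mean of 3.27, under the background level, gave 0.58 ± 0.53 in GFP+ minus columnar (adjusted p = 0.638), against -0.95 for the chosen one. Among called genes, Dhx58, Rsad2 and Rtp4 had other probe sets, and none of those was called. In GFP+ minus columnar, the next brightest gave -1.27 ± 0.47 (adjusted p = 0.138) for Rsad2 and -0.84 ± 0.39 (adjusted p = 0.261) for Rtp4. For Dhx58 the next brightest, with a mean of 3.71, close to background, gave -0.68 ± 0.25 (adjusted p = 0.131). A further Dhx58 probe set, with a mean of 2.21, lay under background and gave -0.21 ± 0.30 (adjusted p = 0.787). Bst2 was not called in lectin-only minus columnar in that fit (adjusted p = 0.0548). Of the deposited probe sets 16365 (36.3%) held a value repeated exactly on 2 or more arrays. This touched 3 of the chosen probe sets, those of Ifit2 and Socs1 with 1 value on 4 of the 9 arrays each and that of Gbp2 with 1 value on 2.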
